A study of Mus musculus with 10 samples.

Results

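Fibroblasts and cartilage-like cells came through a sort for CD31 (Pecam1, an adhesion protein of endothelial cells) of dissociated mouse ear skin. They were chosen by a rule on each cell barcode's counts of unique molecular identifiers (UMIs). Barcodes in which fewer than 500 genes were detected, or in which mitochondrial genes took over 10% of UMIs, were set aside. It was a member if it held at most 1 UMI of Prox1 (the lymphatic endothelial transcription factor), at most 1 of Flt1 (VEGF receptor 1 of blood endothelium), under 5 over the mural genes Pdgfrb, Kcnj8, Abcc9 and Vtn, and at least 20 over the matrix genes Col1a1, Col1a2, Dcn, Lum and Col2a1. The rule found 186 members among 6401 kept and 9016 deposited barcodes. Of these, 106 with 3 or more UMIs of Col2a1, the main fibrillar collagen of cartilage, are called cartilage-like, and the other 80 are called Col2a1-low.

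The series asked how angiopoietins and their Tie receptors act on lymphatic vessels. The part of it used here is a pair of droplet single-cell RNA-seq (10x) libraries from ear skin of wild-type C57Bl/6j mice, 1 library per treatment. The mice of one library received a mouse IgG1 control antibody, and those of the other the angiopoietin-2 blocking antibody 18E5 (Ang2 Ab), both at 20 mg/kg every 3 days from postnatal day P16 to P21. The labels give an age of P1-P21, the sex as male and no number of mice per library, and the title of the Ang2 Ab library calls it a control while its treatment label names the blocking antibody. Nothing was deleted or induced in these mice.

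The ear is stiffened by a plate of elastic cartilage, whose chondrocytes lay down collagen II, aggrecan and elastin and are known to store fat in droplets. A sheath of connective tissue, the perichondrium, covers the plate, and fibroblasts of the dermis lie outside it. Fibroblasts secrete collagens I and III and small leucine-rich proteoglycans such as decorin. Neither cell type makes CD31, so neither is a target of the sort.

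The IgG library held 42337184 UMIs in 4685 barcodes, of which 3438 were kept, and the Ang2 Ab library 31720670 UMIs in 4331 barcodes, of which 2963 were kept. In the IgG library 105 barcodes were members, 3.05% of those kept (95% exact binomial interval 2.51 to 3.69). In the Ang2 Ab library 81 were members, 2.73% (2.18 to 3.39). Without members that held a UMI of Pecam1 or Cdh5 the shares were 1.48% and 1.89%, so the order of the libraries turned. Intervals here and in what follows cover counting error only, and with 1 library per treatment there is no test of a treatment difference. The share of members that were cartilage-like was 57.1% (60 barcodes; 47.1 to 66.8) in the IgG library and 56.8% (46 barcodes; 45.3 to 67.8) in the Ang2 Ab library, and these intervals overlap. Cartilage-like barcodes were deeper than the rest, with a median of 21480.5 UMIs in the IgG and 17892.5 in the Ang2 Ab library, against 12679 and 13211 in Col2a1-low barcodes and 9738 and 7766 in all other kept barcodes.

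Some facts on the libraries bear on every value. The libraries had 5 barcode sequences in common, none of them a member. Counts of 4 pairs of members in the IgG library and 1 in the Ang2 Ab library were nearly alike, with a chi-square per degree of freedom of 1.34 to 1.69 where the next closest pairs had 2.90 and 2.93 and the medians over all pairs were 8.64 and 7.93. Without 1 barcode of each such pair, member shares were 2.94% and 2.7% and every count of genes past a fold stayed within 1.5 times the one given here. Although both libraries are labelled male, UMIs of the X-inactivation RNA Xist without any of 4 Y-linked genes were found in 65 of 105 members of the IgG library and 25 of 81 of the Ang2 Ab library, and Y-linked genes without Xist in 29 and 49. The libraries thus held cells of both sexes in different proportions, and values within each sex are given with the comparison of treatments.

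The limit on the matrix sum cut through few barcodes. Otherwise eligible barcodes with a matrix sum just outside, of 15 to 19, numbered 4 in the IgG and 1 in the Ang2 Ab library, and members just inside, of 20 to 24, numbered 2 and 0, where the median member held 211 and 242. Col2a1 was at 0 UMIs in 37 and 27 members, at 1 or 2 in 8 and 8, and at 3 to 5 in 7 and 6, and the median cartilage-like barcode held 49.5 and 42.5. The filters on quality left out 19 and 13 barcodes that met the rest of the rule, 16 and 12 of them for mitochondrial UMIs, and of these 8 and 7 carried 3 or more UMIs of Col2a1.

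Against all other kept barcodes, members had more of the matrix genes of connective tissue and less of the endothelial genes. Since the rule selected on matrix, endothelial and mural genes, what follows in this contrast is a description and not a finding about separate cells. Levels are given as CPM, the UMIs of a gene per 1000000 UMIs, summed over the barcodes of a class in a library. Of 12961 genes with at least 100 UMIs, 610 (4.71% of those tested) were at least 4-fold higher in members in both libraries and 930 (7.18%) were 0.25-fold or lower in both, with a median ratio over all genes of 0.821 in the IgG and 0.818 in the Ang2 Ab library. The plot of levels by barcode class shows where the genes that led each class lay.

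**Figure D1:**
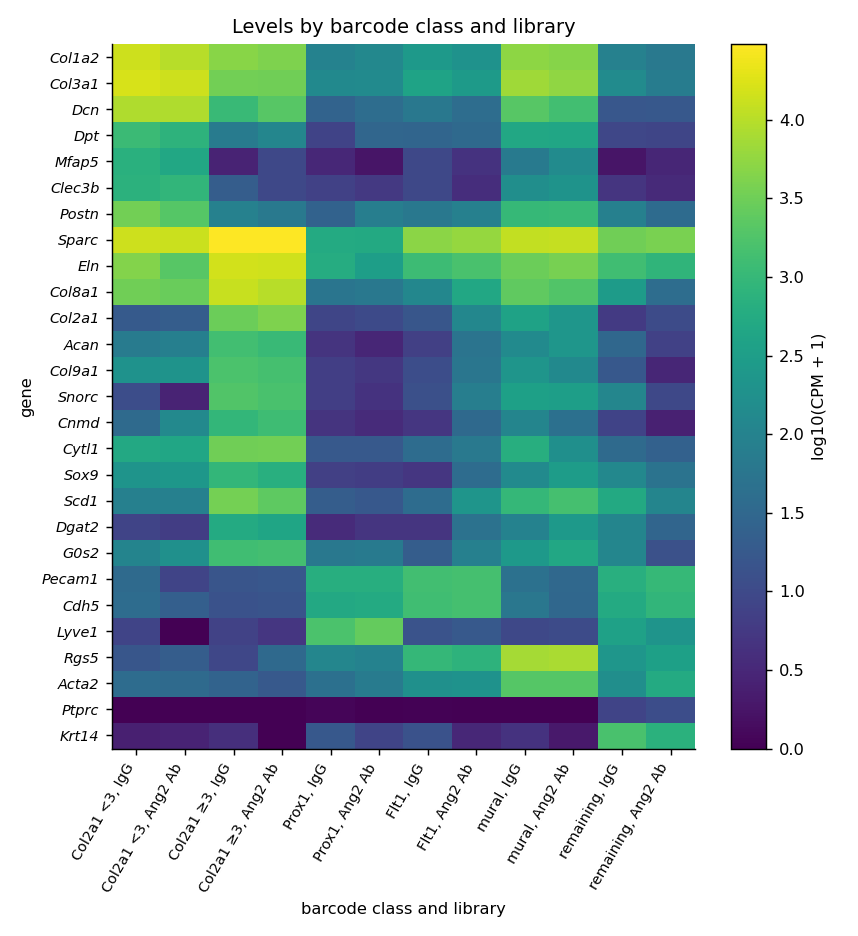
Summed levels as log10(CPM + 1) (color) of 27 genes (rows) in 6 classes of kept barcodes in each library (columns). Members are the first 4 columns; Sparc reaches 30359 CPM in cartilage-like barcodes of the IgG library, and Pecam1 stays at or under 33.8 CPM in members.

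Genes of the fibroblast were the first group. Of 15 tested pan-fibroblast markers, 12 were past 4-fold higher in members and none lower. Lists of fibroblast subtypes were mixed. Of 13 universal markers 4 were higher and 2 lower, with medians of 0.670 and 0.873, of 9 reticular ones 2 and 2, with medians of 0.695 and 1.27, and of 10 papillary ones 2 and 1, with medians of 1.57 and 1.84. Pdgfra, the platelet-derived growth factor receptor that marks mesenchyme, stood at 70.0 CPM in members and 4.54 in other barcodes of the IgG library, and at 124 and 8.03 CPM in the Ang2 Ab library. Of 9 tested small leucine-rich proteoglycans that the rule did not use, 8 were higher. Among them, osteomodulin (Omd), a proteoglycan of mineralizing and cartilaginous tissue, was 66.9-fold (95% exact interval 55.7 to 80.8) higher in the IgG and 46.8-fold (38.8 to 56.7) in the Ang2 Ab library. Collagen processing enzymes were higher for 9 of 18 tested, lysyl oxidase (Lox) among them.

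Cartilage matrix genes were the next group. All 25 tested of 28 listed were past 4-fold higher, with a median ratio of 52.0 in the IgG and 22.8 in the Ang2 Ab library. Matrilin-3 (Matn3), a bridging protein of the cartilage matrix, had the greatest ratio among genes with at least 100 UMIs, a limit it passed mostly through members. It had 50 UMIs in members against 4 in all other barcodes of the IgG library, a ratio of 195 (71.6 to 744), and 79 against 10 in the Ang2 Ab library, 143 (73.6 to 309), with 31 of the 50 and 38 of the 79 in 1 barcode each. Cytokine-like 1 (Cytl1), a secreted protein of chondrocytes, was 44.0-fold (41.8 to 46.3) and 46.9-fold (44.04 to 49.98) higher. Chondromodulin (Cnmd), which is known to keep cartilage free of vessels, was 76.0-fold (67.4 to 85.8) and 43.4-fold (39.2 to 48.1) higher. Of 8 tested chondrocyte transcription factors, Sox9, Sox5, Sox6 and Barx1 were past the fold, and Nkx3-2 was at 0 UMIs in all members.

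Positional factors of the mesenchyme were higher in members than in all other barcodes together, but mural barcodes had them as well. Summed over the 22 listed factors, mural barcodes stood at 1145 and 1180 CPM in the IgG and Ang2 Ab libraries. Col2a1-low barcodes stood at 1654 and 1412 CPM and cartilage-like ones at 1105 and 1031. Prrx1 was at 500 and 557 CPM in mural, 476 and 460 in Col2a1-low and 449 and 405 in cartilage-like barcodes. Of 15 tested factors of craniofacial and limb patterning, 10 were higher in members (Msx1, Dlx5, Dlx6, Hoxa2, Tbx15, Prrx1, Prrx2, Twist1, Twist2 and Barx1) and Meox1 was lower. Hoxa2, the homeobox factor that sets the identity of the second arch and shapes the pinna, stood at 17.1 CPM in members and 1.48 in the others of the IgG library and at 10.0 and 1.33 CPM in the Ang2 Ab library. Outside the lists, Mab21l2, a gene of craniofacial development, and Pou3f3, a POU-domain factor, were among the 10 genes of greatest ratio, with ratios of 45.97 and 44.02 in the library where each was nearer 1. Interferon response genes lay on the other side, with 8 of 10 past 0.25-fold lower in members.

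Markers of other cells were mostly low in members, and some were absent. Of 14 tested endothelial genes 13 were lower, and of 6 tested lymphatic genes 4. Ramp2, an endothelial receptor partner, still stood at 138 to 301 CPM in the member classes, against 890 and 740 in other barcodes. Pecam1, whose protein was sorted for, stood at 33.8 and 7.38 CPM in Col2a1-low barcodes of the IgG and Ang2 Ab libraries and at 14.5 and 15.7 CPM in cartilage-like barcodes, against 640 to 1442 CPM in Prox1 and Flt1 barcodes. At least 1 UMI of Pecam1 or Cdh5 was nonetheless found in 54 of 105 members of the IgG and 25 of 81 of the Ang2 Ab library, and 5 or more in 2 and 2. Thinned to 2000 UMIs per barcode, Pecam1 was found in 8.33% (2.76 to 18.4) of cartilage-like barcodes of the IgG library and in 4.31% (1.41 to 9.77) of its mural barcodes. In the Ang2 Ab library the thinned share was 0 of 46 (exact upper bound 7.71%) and that of mural barcodes 6.00%. In Col2a1-low barcodes it was 4.44% (0.543 to 15.2) in the IgG library and 0 of 34 (upper bound 10.3%) in the Ang2 Ab library. Cdh5, the endothelial cadherin, was found after thinning in 11.1% (3.71 to 24.1) and 11.8% (3.30 to 27.5) of Col2a1-low barcodes. It was found in 0 of 60 and 1 of 46 cartilage-like ones, and in 7.76% (3.61 to 14.2) and 3.33% (1.09 to 7.61) of mural ones. Pericytes are not known to make either gene, the intervals of members and mural barcodes overlap, and the part of free RNA was not tested. The leukocyte gene Ptprc was at 0 UMIs in all members, and 7 of 10 keratinocyte and 4 of 5 erythroid genes were lower. Schwann genes went the other way, with Sox10, Mbp and Cdh19 among those past 4-fold higher.

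Angpt1, Angpt2 and Vegfc stood at under 40 CPM in members, while Svep1 and Igf1 were past 4-fold higher than in other barcodes in both libraries. Angpt2, the ligand that the antibody binds, stood at 1.47 to 4.19 CPM in the member classes against 139 CPM in Prox1 barcodes of the IgG and 852 of the Ang2 Ab library. The paper of this series reports more Ang2 transcript in mice given the Ang2 Ab, the direction of the treatment label rather than the title. That report rests on the single-cell data of this same series, so it cannot decide between the label and the title. Angpt1, the activating Tie2 ligand, stood at 11.7 and 29.5 CPM in Col2a1-low and 12.0 and 3.14 in cartilage-like barcodes, from 8, 16, 20 and 3 UMIs. Svep1, a matrix protein that binds Tie1, was at 58.7 and 90.4 CPM in Col2a1-low barcodes and at 5.42 and 16.8 in cartilage-like ones. Vegfc, the lymphatic growth factor, was at 39.6 and 29.5 CPM in Col2a1-low and 3.61 and 7.33 in cartilage-like barcodes. Its processing cofactor Ccbe1 was at 11.7 and 29.5 CPM in Col2a1-low barcodes and at 0 in all 106 cartilage-like ones. Igf1, an insulin-like growth factor, stood at 653 and 951 CPM in Col2a1-low and 481 and 397 in cartilage-like barcodes.

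Within the members, cartilage-like barcodes had more of most cartilage matrix genes and less of several fibroblast genes than Col2a1-low ones, and the following again describes groups that Col2a1 chose. Of 5251 genes with at least 100 UMIs, 109 (2.08%) were at least 4-fold higher in cartilage-like than in Col2a1-low barcodes of both libraries and 120 (2.29%) were 0.25-fold or lower, with medians over all genes of 0.952 and 0.960. Of 25 tested cartilage matrix genes 15 were higher, with a median ratio of 6.30 in the IgG and 6.82 in the Ang2 Ab library, and Cilp, an intermediate-layer protein, was lower. The genes lie across the genome, Col2a1 at chr15:97975602-98004695, Snorc at chr1:87470271-87475482 and Cnmd at chr14:79637690-79662170 (GRCm38).

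Snorc, a transmembrane proteoglycan of chondrocytes, had the greatest ratio at a Col2a1 limit of 3. It had 3115 UMIs in 41 of 60 cartilage-like barcodes and 7 in 2 of 45 Col2a1-low barcodes of the IgG library, a ratio of 182 (88.5 to 454). In the Ang2 Ab library it had 1483 UMIs in 35 of 46 and 1 UMI in 35 Col2a1-low barcodes, a ratio of 841 (151 to 33246). This ratio depends on where Col2a1 is cut. In the library nearer 1 it was 10.9 at a Col2a1 limit of 10, below that of Col9a2 (18.6) at the same limit, 868.5 at no more than 5% mitochondrial UMIs and 94.97 as a mean over barcodes of CPM. At the limit of 3, 19 and 11 cartilage-like barcodes had no Snorc UMI, so Snorc did not mark all of them. Collagen IX, which decorates the surface of collagen II fibrils, was high in most. Its Col9a3 chain had from 0 to 288 UMIs with a median of 26.5 per cartilage-like barcode of the IgG library and from 0 to 229 with a median of 19.5 in the Ang2 Ab library, against medians of 0 and highest values of 4 and 8 in Col2a1-low barcodes.

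Aggrecan (Acan), the large proteoglycan that holds water in cartilage, had 18.6-fold (14.0 to 25.2) the level of Col2a1-low barcodes in the IgG and 12.4-fold (9.29 to 17.0) in the Ang2 Ab library. Cnmd was 27.97-fold (18.6 to 44.3) and 9.98-fold (7.81 to 12.9) higher. Sox9, the master regulator of chondrocytes, stood at 943 and 669 CPM in cartilage-like and at 210 and 234 in Col2a1-low barcodes. It thus differed less between the groups than several of the matrix genes. None of the 8 tested chondrocyte transcription factors was past 4-fold in both libraries, with median ratios of 2.55 and 2.05. Beside 2.08% of all tested genes higher and 2.29% lower, a count of 0 in so short a list says little. Wif1, a secreted Wnt inhibitor, was 21.4-fold (18.1 to 25.5) and 11.3-fold (9.497 to 13.5) higher, and Frzb, another one, was 21.6-fold (9.13 to 67.0) higher in the IgG library and at 0 in Col2a1-low barcodes of the Ang2 Ab library, at least 32.3-fold higher with 3 UMIs set for that class.

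Of 14 tested genes of elastic fibers and microfibrils none was past 4-fold higher in cartilage-like barcodes and Mfap5 was lower. Beside 2.08% of all tested genes higher and 2.29% lower, these counts say little about the list. Its median ratios were 0.574 in the IgG and 0.657 in the Ang2 Ab library. Elastin itself lay on the other side of 1, as did a pair of further abundant matrix genes. Elastin (Eln) stood at 15271 and 14419.9 CPM in cartilage-like and at 4470 and 2106 CPM in Col2a1-low barcodes. Its highest barcode held 4769 UMIs in the IgG and 1634 in the Ang2 Ab library. Sparc, a collagen-binding matricellular protein, was at 30359 and 29588 CPM in cartilage-like and 13758 and 13195 in Col2a1-low barcodes, a ratio of 2.21 and 2.24. Col8a1, a short-chain network collagen, was at 12742 and 10124.5 CPM against 3191 and 2817. Genes of hypertrophy and bone were low, with 12 listed genes summing to 279 and 162 CPM in cartilage-like barcodes and Ihh at 0 in all members. Of 5 tested against other barcodes, Col10a1, Pth1r and Spp1 were past 4-fold higher in members and Alpl was lower. Their median ratios were 11.5 and 5.99, and 4.71% of all tested genes were higher and 7.18% lower. Col10a1, the collagen of hypertrophic chondrocytes, was at 48.8 and 51.3 CPM in cartilage-like and at 0 in Col2a1-low barcodes. It was at least 11.1-fold and 9.26-fold higher when 3 UMIs are set for the whole class at 0.

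**Figure D2:**
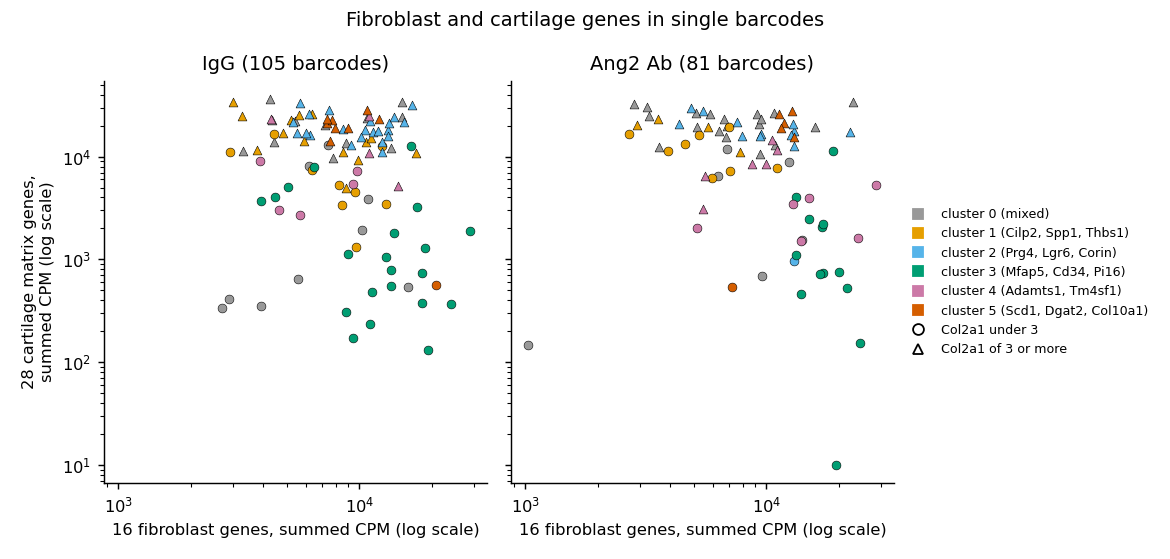
Each point is 1 member barcode (circles, Col2a1 under 3; triangles, 3 or more), colored by cluster, with the summed CPM of 16 fibroblast genes (x, log scale) and of 28 cartilage matrix genes (y, log scale) in the IgG and Ang2 Ab libraries, values under 10 drawn at 10. Most of cluster 3 lies at high fibroblast and low cartilage sums, while several circles of other clusters lie among the triangles.

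On the other side, 7 of 14 tested pan-fibroblast markers and 5 of 10 of the universal, adventitial kind were lower in cartilage-like barcodes, and none was higher. Mfap5, a microfibril protein of fascia and adventitia, had 472 UMIs in 45 Col2a1-low barcodes and 3 in 60 cartilage-like ones of the IgG library, a ratio of 0.00261 (0.000535 to 0.00766), and 268 and 8 in the Ang2 Ab library, 0.0169 (0.00724 to 0.0339). Periostin (Postn), a matricellular protein of fibroblasts, was at 3335 and 1971 CPM against 90.9 and 64.9. Pi16, a marker of adventitial fibroblasts, had 140 and 43 UMIs in Col2a1-low barcodes and 0 in all 106 cartilage-like ones. Cxcl12, a chemokine of stromal cells, was 0.0296-fold (0.0155 to 0.0519) and 0.0693-fold (0.0334 to 0.130) as high in cartilage-like barcodes. Several genes of lowest ratio (Mbp, Mal and Kcna1) belong to myelin or peripheral nerve and came from the few barcodes described further on.

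Lipid genes were a second program of the cartilage-like barcodes. Of 13 tested genes of lipid droplets and lipid synthesis 6 were past 4-fold higher (Plin2, Cidea, Fasn, Scd1, Dgat2 and G0s2) and none lower, with a median ratio of 5.59 in the IgG and 4.57 in the Ang2 Ab library beside 0.952 and 0.960 for all genes. Scd1, the desaturase that makes monounsaturated fatty acids, stood at 3504 and 2326 CPM in cartilage-like and at 88.1 and 88.6 in Col2a1-low barcodes. Dgat2, which adds the last acyl chain of triglycerides, had 905 UMIs against 5 in the IgG and 417 against 3 in the Ang2 Ab library, 74.2-fold (31.7 to 229) and 78.8-fold (26.8 to 384), and 13.3-fold in the library nearer 1 at a Col2a1 limit of 10. The lipid droplet genes Plin1 and Cidec and the adipocyte gene Adipoq were at 0 UMIs in all members. Of 4 tested genes of the adipocyte list, none was past 4-fold higher in members and Fabp4 was lower, where 4.71% and 7.18% of all tested genes were. Fabp4 still stood at 72.8 and 122.5 CPM in cartilage-like barcodes. Between the member classes Lpl was lower in cartilage-like barcodes and none of the 4 tested was higher.

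Scd1 was spread unevenly over the cartilage-like barcodes. Per barcode it ran from 0 to 1149 UMIs with a median of 8.5 in the IgG and from 0 to 451 with a median of 2 in the Ang2 Ab library. The 15 and 11 barcodes of greatest Scd1 level in CPM held 94.3% and 95.9% of its UMIs and also 88.95% and 90.65% of those of Dgat2, while they held 44.7% and 39.3% of all UMIs. The 15 and 11 barcodes were deeper, with medians of 38842 and 28307 UMIs against 19491 and 15217 in the others. The part of depth in this spread was not tested.

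**Figure D3:**
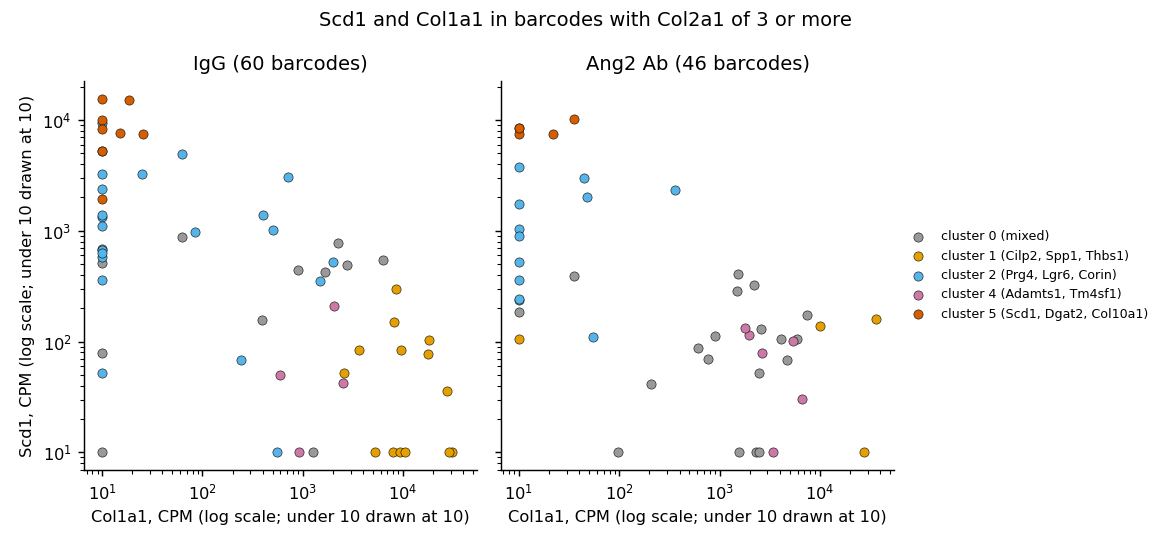
Each point is 1 cartilage-like barcode, colored by cluster, with Col1a1 (x) and Scd1 (y) in CPM on log scales (values under 10 drawn at 10) in the IgG and Ang2 Ab libraries. Cluster 5 lies at high Scd1 and low Col1a1, and most of cluster 1 at the opposite corner.

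Clustering of the 186 members gave 6 clusters, and the genes that lead a cluster describe it without testing it. Cluster 5 held 15 barcodes, 13 of them cartilage-like, with a median of 45451 UMIs and with A2m, Col10a1, Dgat2, Cidea and Scd1 among its 10 leading genes. Its cartilage-like barcodes (8 in the IgG and 5 in the Ang2 Ab library) had Scd1 at 8839 and 8345 CPM, against 1186 and 649 in the other 52 and 41. They all held Col10a1, at 155 and 202 CPM against 2.59 and 9.37. They had little collagen I, with Col1a1 at 7.95 and 9.61 CPM against 3665 and 3080. Its other chain Col1a2 was found in all 8 and 5, at 209 and 375 CPM against 6862 and 5109. Dcn was at 5.96 and 144 against 1585 and 2602. Elastin was at 25964 and 22325 CPM against 10625.5 and 12217, and Snorc at 3836 and 3493 against 1023 and 1012. Cartilage-like barcodes thus ran from collagen I-rich ones with little Scd1 to collagen I-poor ones with much of it, in both libraries.

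Cluster 2, with 34 of 35 barcodes cartilage-like, was led by Prg4 (lubricin, the lubricant of cartilage surfaces), Lgr6 and Corin, but 67.6% of its Prg4 UMIs lay in 1 barcode. Cluster 1, with 17 Col2a1-low and 18 cartilage-like barcodes, was led by Cilp2, Spp1 (osteopontin), Thbs1 and tenascin C (Tnc), beside Otor, of which 97.4% of UMIs lay in 1 barcode. Cluster 4, with 11 and 10, was led by Msmp, of which 95.5% of UMIs lay in 1 barcode, and then by Adamts1 and Tm4sf1. Cluster 0 was the largest, with 15 Col2a1-low and 31 cartilage-like barcodes and a median of 12701.5 UMIs. Myelin genes such as Mal and Mbp were among its leading ones, and 10 of its 46 barcodes carried Schwann genes. Both classes mixed in clusters 0, 1 and 4, so 3 UMIs of Col2a1 did not part the members along the lines of the clusters.

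Cluster 3 held 34 barcodes (21 in the IgG and 13 in the Ang2 Ab library), all of them Col2a1-low, and it was the cluster whose leading genes went with the name of fibroblast. Its leading genes were Coch, Dkk2, Pi16, H19, Lpl, Mfap5, Cygb, Pcdh7, Cilp and Cd34, of which Mfap5, Cd34 and Pi16 are on the pan-fibroblast or universal fibroblast lists, while Cilp is on the cartilage, Lpl on the adipocyte and Cygb on the reticular list. Mfap5 was found in 31 of the 34 and Cd34 in 33. It had Col1a1 at 20729 and 13221 CPM, Dpt (dermatopontin) at 1901 and 1348, and Clec3b (tetranectin) at 1255 and 1732. Cytl1 was at 2.72 and 0 CPM in it and Cnmd at 2.72 and 0. The cartilage matrix list was not absent, since Cilp, one of its leading genes, is on that list at 1250 CPM over both libraries, with 42.1% of its UMIs in 1 barcode. Summed over the 28 listed genes, cluster 3 barcodes ran from 132 to 12549.9 CPM with a median of 1056 in the IgG library and from 0 to 11258.5 with a median of 752 in the Ang2 Ab library, so the highest lay within the range of cartilage-like barcodes, whose medians were 18756 and 19441.

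The other 46 Col2a1-low barcodes went against a plain fibroblast name. Leaving out those with Schwann genes, 19 barcodes of the IgG and 18 of the Ang2 Ab library had Cytl1 at 1286 and 1096 CPM, Mia (a secreted protein of chondrocytes) at 611 and 797, Chad (chondroadherin) at 514 and 552, Sox9 at 484.5 and 493.4 and Col8a1 at 7152 and 6043, with Col1a1 at 6172 and 6043 CPM. Their cartilage gene levels lay between those of cluster 3 and of the cartilage-like barcodes. They are called Col2a1-low here and given no cell type.

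Small numbers of barcodes carried programs of other tissues. At least 10 UMIs over 6 Schwann genes were found in 5 members of the IgG and 6 of the Ang2 Ab library, 9 of them Col2a1-low and 10 of them in cluster 0. Tnmd (tenomodulin, of tendon) reached 10 UMIs in 4 and 5 members, which held 94.9% and 94.5% of its UMIs. These barcodes weigh on summed levels, as the comparison of treatments shows.

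Barcodes just outside the rule included further cartilage. Of the kept barcodes set aside as mural, 10 in the IgG and 6 in the Ang2 Ab library held 3 or more UMIs of Col2a1. Kcnj8, Vtn, Notch3 and Higd1b, genes of pericytes, were at 0 UMIs in them, and Rgs5 was at 6.50 and 3.58 CPM where the other mural barcodes had 9149 and 9490. They had Snorc at 1875 and 2206 CPM and Scd1 at 5108 and 9517. Kcnj8, Abcc9 and Vtn summed to under 2 UMIs in each of the 10 and 6, so Pdgfrb had put them past the mural limit. It was at 198 and 133 CPM, against 36.7 and 50.3 in cartilage-like members. Their median depth was 25908.5 and 32884 UMIs. Member counts therefore leave out some barcodes that carry the cartilage genes. They also leave out other barcodes with a matrix sum of at least 20. Counting those with Col2a1, such sums were held by 53 mural, 35 Flt1 and 15 Prox1 barcodes of the IgG library. In the Ang2 Ab library these were 69, 40 and 4. Whether fibroblasts were among them was not tested.

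Between treatments the classes were compared gene by gene within each class, the one contrast that the rule did not use. A gene is called past the fold at a CPM ratio of Ang2 Ab to IgG of at least 2 or at most 0.5, among genes with at least 100 UMIs over both libraries. In Col2a1-low barcodes 23 of 1948 genes (1.18%) were higher in the Ang2 Ab library and 34 (1.75%) lower, and the median ratio was 1.04. In cartilage-like barcodes 16 of 3759 (0.426%) were higher and 28 (0.745%) lower, with a median of 0.996. Most genes thus lay within 2-fold, 97.1% and 98.8% of those tested. The cartilage-like barcodes of the libraries lay in the same clusters in different proportions. In the IgG library 22 of 60 were in cluster 2, 14 in cluster 1 and 12 in cluster 0, and in the Ang2 Ab library 12 of 46, 4 and 19. When each gene's highest barcode was left out, 18 and 29 genes of the Col2a1-low and 8 and 26 of the cartilage-like classes were still past the same limit.

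Ratios were also taken within each sex, an alternative chosen after seeing the data. Xist without Y-linked UMIs marked 29 Col2a1-low and 36 cartilage-like barcodes of the IgG library and 10 and 15 of the Ang2 Ab library, and Y-linked genes without Xist 10 and 19, and 21 and 28. Of the 23 genes higher in Col2a1-low barcodes, 6 were past the fold within Xist barcodes and 10 within Y-linked ones, and of the 34 lower 12 and 6. Of the 16 higher and 28 lower in cartilage-like barcodes these were 4 and 4, and 7 and 4. The smaller sums also left fewer genes with 100 UMIs, 871 and 787 in Col2a1-low and 1817 and 1558 in cartilage-like barcodes.

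**Figure D4:**
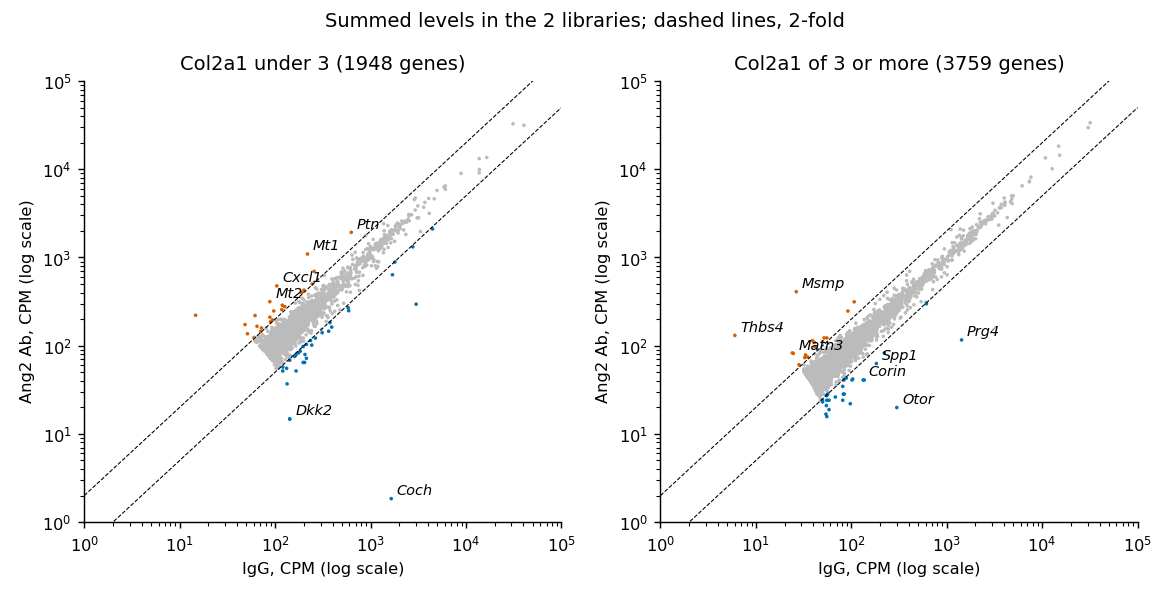
Each point is 1 gene with at least 100 UMIs, with its summed CPM in the IgG (x) and Ang2 Ab (y) libraries on log scales, for Col2a1-low barcodes (1948 genes) and cartilage-like barcodes (3759 genes). Colored points lie past the dashed 2-fold lines; Coch and Dkk2 (Col2a1-low) and Otor and Prg4 (cartilage-like) lie far below the lower line, and Thbs4 and Msmp (cartilage-like) far above the upper one.

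Metallothioneins were higher in Col2a1-low barcodes of the Ang2 Ab library. Mt1, which binds zinc and other metals, had 593 UMIs against 149 in the IgG library, 1095 against 219 CPM, a ratio of 5.00 (95% exact interval 4.18 to 6.03). It ran from 0 to 175 UMIs with a median of 4 in the 35 barcodes of the Ang2 Ab library and from 0 to 25 with a median of 1 in the 45 of the IgG library, so the ranges overlapped. Mt2, its close paralog, had 171 UMIs against 60, a ratio of 3.58 (2.66 to 4.89). Without the highest barcode of each library the ratios were 4.24 and 5.20, and as a mean over barcodes of CPM that of Mt1 was 2.97. When members with a Pecam1 or Cdh5 UMI were moved out, that of Mt2 was 2.08, near the 2-fold limit. In cluster 3 Mt1 was at 166 CPM in the IgG and 807 in the Ang2 Ab library, and in the other Col2a1-low barcodes at 281 and 1336, so both parts of the class had the same direction. Within Xist barcodes its ratio was 2.93 (2.11 to 4.07) and within Y-linked ones 6.76 (4.76 to 9.93), and those of Mt2 were 3.13 and 7.42. In cartilage-like barcodes it was at 346 and 447 CPM, within 2-fold.

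The upstream windows of both genes are shown since the pair moved together and since metal response elements are the known switch of these genes. The windows are the 250 bases before the RefSeq start of each gene (GRCm38.p6, plus strand), Mt1 at chr8:94178839-94179088 and Mt2 at chr8:94172368-94172617, written 5′ to 3′. Capitals mark matches to the core TGCACNC or TGCGCNC, searched on both strands.
Mt1: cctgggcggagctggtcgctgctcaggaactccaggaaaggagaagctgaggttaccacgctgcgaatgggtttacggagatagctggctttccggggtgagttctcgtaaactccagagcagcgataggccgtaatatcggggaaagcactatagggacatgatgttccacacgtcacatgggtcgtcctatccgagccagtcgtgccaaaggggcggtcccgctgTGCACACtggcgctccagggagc
Mt2: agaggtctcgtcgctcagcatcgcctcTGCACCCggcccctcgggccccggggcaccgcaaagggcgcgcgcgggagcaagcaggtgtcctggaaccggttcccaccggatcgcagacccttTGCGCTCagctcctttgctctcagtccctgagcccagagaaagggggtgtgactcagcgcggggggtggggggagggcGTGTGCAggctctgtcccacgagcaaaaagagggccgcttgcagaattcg
The Mt1 window held 1 match, starting 23 bases before the RefSeq start, and the Mt2 window 3, starting 223, 128 and 50 bases before it. The start depends on the annotation. In GENCODE, Mt1 starts inside its window, at chr8:94179082, and Mt2 past the end of its window, at chr8:94172664. Bases after the windows were not searched, so these are not counts over whole promoters. Of 32851 windows of the same length, 21.4% held at least 1 match and 1.26% held 3 or more. A match describes the letters of the window and not a bound site.

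Other genes higher in Col2a1-low barcodes of the Ang2 Ab library differed in how widely they were found. Angptl1, an angiopoietin-like secreted protein, had 377 UMIs in 23 of 35 barcodes against 175 in 20 of 45, a ratio of 2.71 (2.26 to 3.26), and 2.44 without the highest barcodes, 2.40 within Xist and 4.70 within Y-linked barcodes. Fhl1, a LIM-domain protein, had 2.66 (1.76 to 4.10) from 20 barcodes against 19, and Sfrp1, a secreted Wnt inhibitor, 2.57 (1.77 to 3.78) from 19 against 13. Others were found in fewer barcodes, or were high in 1. Cxcl1, a chemokine for neutrophils, had 258 UMIs in 12 of 35 barcodes against 71 in 10 of 45, a ratio of 4.57 (3.50 to 6.03). Its ratio was 1.17 (0.671 to 1.97) within Xist and 9.32 (5.12 to 18.9) within Y-linked barcodes. It was 12.1 when members with a Pecam1 or Cdh5 UMI were moved out and 2.65 as a mean over barcodes of CPM. Pou3f1, a factor of myelinating Schwann cells, had a ratio of 15.1 (7.93 to 32.3), but 87.5% of its UMIs lay in 1 barcode. Its ratio was 1.81 without the barcodes with Schwann genes and 1.84 without the highest 5% of doublet scores, no longer past the fold. Timp1, an inhibitor of matrix proteases, had 3.58 (2.39 to 5.50) and Ptn, a heparin-binding growth factor, 3.07 (2.74 to 3.44), and without the highest barcode these were 1.64 and 1.43. Mest, an imprinted gene, had 3.56 (2.49 to 5.19) from 12 barcodes in each library, but 17.7 within Xist and 0.397 (0.212 to 0.738) within Y-linked barcodes. Of 5 tested markers of reticular fibroblasts, Dlk1, Mest and Cygb were past 2-fold higher and none lower, beside 1.18% of all tested genes that were higher. Dlk1, an inhibitor of fat cell formation, had 2.19 (1.67 to 2.89) from 18 barcodes against 9, and Cygb, a globin, 2.39 (1.73 to 3.32) from 12 against 13. Within Y-linked barcodes these were 0.763 (0.567 to 1.03) and 1.42 (0.825 to 2.55), and within Xist barcodes 3.65 and 4.06.

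Of the genes lower in the Ang2 Ab library, some were found in few barcodes. Coch, cochlin, a matrix protein of the inner ear, had 1123 UMIs in 6 of 45 barcodes of the IgG library, 663 of them in 1, and 1 UMI in the Ang2 Ab library, a ratio of 0.00112 (2.83e-05 to 0.00625), which was 0.0643 when barcodes up to 20% mitochondrial UMIs were let in. All 6 barcodes were in cluster 3. Pmp22, a membrane protein of myelin, had a ratio of 0.375 (0.332 to 0.423), and leaving out the barcodes with Schwann genes Pmp22 came to 1.06. Dkk2, a Wnt inhibitor, had 97 UMIs in 13 barcodes against 8 in 2, a ratio of 0.104 (0.0435 to 0.213).

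Of 12 tested genes of elastic fibers and microfibrils, Eln and Mfap4 were lower and 10 were not past the fold, with a median of 0.821, beside 1.75% of all tested genes that were lower. Eln had 3045 UMIs in 44 of 45 barcodes against 1141 in 30 of 35, a ratio of 0.471 (0.440 to 0.505), and without the highest barcodes 0.544. Mfap4, a microfibril-associated protein, had 1226 UMIs in 27 barcodes against 481 in 23, 0.493 (0.443 to 0.549), and 0.480 without the highest. Both are thus near the 2-fold limit. Within Xist and Y-linked barcodes Eln was at 0.288 and 0.789 and Mfap4 at 0.688 and 0.247, each below 1 in both. Xist was also among the 34 lower genes, at 0.462 (0.380 to 0.560), beside the larger number of Xist barcodes in the IgG library.

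In cartilage-like barcodes the genes of greatest difference were found in few barcodes. Thbs4, a thrombospondin of tendon and cartilage, had 125 UMIs in 7 of 46 barcodes of the Ang2 Ab library against 10 in 5 of 60, a ratio of 21.7 (11.4 to 46.5), which was 0.571 at no more than 5% mitochondrial UMIs. Of the 125 UMIs, 57 and 54 lay in 2 barcodes that also held 64 and 12 UMIs of the tendon gene Tnmd, whose part in the ratio was not tested. Msmp, a small secreted protein, had 15.5 (11.3 to 21.6), with 70.6% of its UMIs in 1 barcode. Prg4 had 2378 UMIs in 14 barcodes of the IgG library, 1605 of them in 1, against 111 in 13 of the Ang2 Ab library, 0.0812 (0.0665 to 0.0982), and 0.133 without the highest. It came to 1.03 when members with a Pecam1 or Cdh5 UMI were moved out. Otor, otoraplin, a secreted protein related to Mia, had 498 UMIs against 19, a ratio of 0.0664 (0.0396 to 0.105), but 490 of the 498 lay in 1 barcode and the ratio without it was 1.96. Within Xist barcodes, where it had 7 UMIs in each library, it was 2.62 (0.784 to 8.75). Medians per barcode were 0 in both libraries for all 4 genes, as the plot of single barcodes shows.

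**Figure D5:**
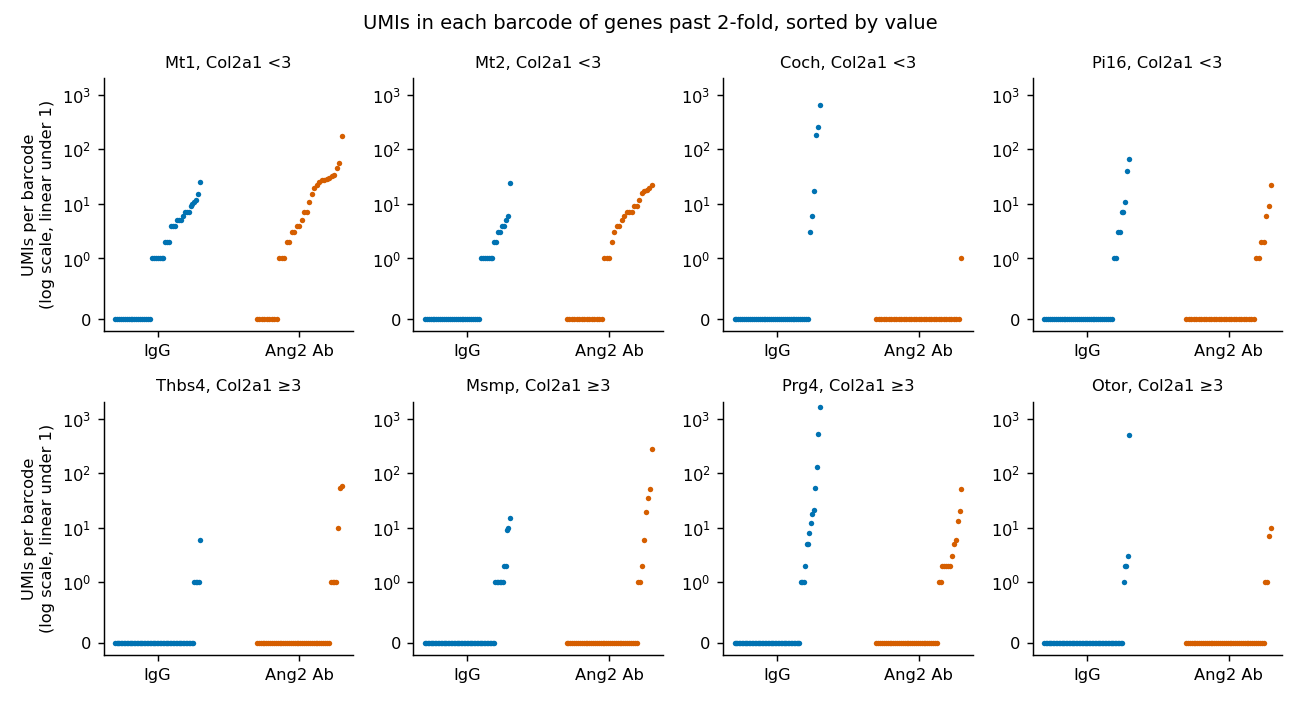
UMIs per barcode (symmetric log scale, linear under 1) of 4 genes in Col2a1-low barcodes (top) and 4 in cartilage-like barcodes (bottom) of the IgG and Ang2 Ab libraries, each barcode a point sorted by value. Mt1 and Mt2 are spread over many barcodes, while Coch, Pi16, Otor and Prg4 stand on a few.

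Genes lower in more barcodes of the Ang2 Ab library included Cdkn1a, the p21 cell cycle inhibitor, found in 43 of 60 and 27 of 46 barcodes with a ratio of 0.487 (0.426 to 0.556). Corin, a serine protease, was found in 25 and 14, with a ratio of 0.307 (0.213 to 0.433). Vcan, the proteoglycan versican, was found in 24 and 9, with 0.284 (0.153 to 0.492), and Lgals3bp, a galectin ligand, in 26 and 8, with 0.296 (0.182 to 0.463). Wfdc2, a secreted protease inhibitor, went the other way at 2.68 (2.18 to 3.31), from 18 barcodes against 24. Within Xist and Y-linked barcodes Cdkn1a was at 0.363 and 0.787, Corin at 0.366 and 0.357, Vcan at 0.342 and 0.283, Lgals3bp at 0.501 and 0.315, and Wfdc2 at 3.89 and 1.21. Corin is a leading gene of cluster 2, which held 22 of 60 cartilage-like barcodes in the IgG and 12 of 46 in the Ang2 Ab library. Over all members of cluster 2 it was at 204.2 CPM in the IgG and 79.57 in the Ang2 Ab library. In cluster 5 it was at 203.7 and 75.55 CPM, so it was lower within both clusters. The part of the cluster shares in its ratio was not tested. Cdkn1a was chosen here for its number of barcodes after the values were seen.

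Between the libraries, lists of cartilage and fibroblast genes are read beside the shares of all tested genes past the fold, 0.426% higher and 0.745% lower in cartilage-like and 1.18% and 1.75% in Col2a1-low barcodes, at which a count of 0 in a short list says little. Of 23 tested cartilage matrix genes Matn3 was higher and Prg4 lower, with a median ratio of 0.935. Matn3 was at 3.31 (2.24 to 4.95) from 7 barcodes against 8, and at 0.773 at no more than 5% mitochondrial UMIs. Within Xist barcodes it was at 0.336 (0.103 to 0.853). Within Y-linked ones it was at 30.9 (5.19 to 1255), from 35 UMIs against 1 in the IgG library. Of 12 tested lipid genes none was past 2-fold, with a median of 0.849. Of 8 tested chondrocyte transcription factors none was, with a median of 0.961. In Col2a1-low barcodes none of 14 tested pan-fibroblast markers was past the fold, with a median of 0.972, and of 9 universal fibroblast markers Pi16 and Ly6c1 were lower, with a median of 0.736. Pi16 was at 1.06 (0.684 to 1.60) within Xist and at 0.0412 (0.0107 to 0.1135) within Y-linked barcodes. Ly6c1 came to 1.08 when members with a Pecam1 or Cdh5 UMI were moved out, and it stood at 2043 and 1858 CPM in Flt1 barcodes. None of the 7 angiopoietin and Tie genes had 100 UMIs in either class, so no change in them could be read at this depth. Of the PI3K and FoxO genes, 6 were tested in Col2a1-low and 11 in cartilage-like barcodes, and none was past the fold.

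Of 1836 genes tested in both classes, none was past the fold higher in both, where 1.18% and 0.426% of all tested genes were higher in Col2a1-low and cartilage-like barcodes, shares at which little overlap can be seen. Crispld2, a secreted protein of mesenchyme, was lower in both, at 0.478 (0.329 to 0.685) in Col2a1-low and 0.405 (0.279 to 0.573) in cartilage-like barcodes. It is a leading gene of cluster 1, at 379.9 CPM there against 47.27 in the other members, and that cluster held 14 of 60 cartilage-like barcodes of the IgG and 4 of 46 of the Ang2 Ab library. The part of this in its ratio was not tested. Within Xist barcodes it was at 1.33 (0.732 to 2.33) in Col2a1-low and 0.338 in cartilage-like barcodes, and within Y-linked ones at 0.203 and 0.441. Mfap4 and Thbs4 were lower in Col2a1-low and higher in cartilage-like barcodes, but without each gene's highest barcode Thbs4 was 1.503 in the first class, and Mfap4 was 1.99 in the other and no longer past the fold. Thbs4 in cartilage-like barcodes also turned at the stricter mitochondrial limit, as given above.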

How the data were processed

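Ear skin cells sorted on CD31 were profiled in 1 IgG and 1 Ang2 Ab library by 10x single-cell RNA-seq. The authors deposited filtered matrices of raw UMI counts per gene and barcode (32285 features). The deposited matrix header names Cell Ranger 6.0.2, whereas the submitters' processing notes name Cell Ranger 2.1.1, Seurat 4.0 and 4.0.6, and GRCm38 (mm10). Counts were summed over barcodes of a class in each library and scaled to CPM by total UMIs (numpy 2.4.6, scipy 1.17.1). Ratios have exact conditional 95% intervals, shares exact binomial ones, both for counting error only, and a class at 0 was set to a floor of 3 UMIs. No test was made, since each treatment has 1 library. Members were clustered (scanpy 1.11.5, 1000 variable genes scaled within library, 20 components, 15 neighbors, Leiden resolution 0.5). Scrublet marked 0.582% and 0.0675% of kept barcodes and no member, too few in the second to have worked, so no doublets were removed, and removal of the highest 5% of scores was an alternative. TMM factors came from edgeR 4.0.16 in R 4.3.3. Scripts were tested on simulated data. Named genes were those of 37 gene lists and the 10 highest and 10 lowest ratios per comparison with at least 100 UMIs, leaving out Xist, Y-linked, mitochondrial and identifier-only genes. The members and lists were chosen with earlier results of these data known. Genes past the fold but outside this rule (Cdkn1a, Crispld2, Xist) were named after their values were seen. Some genes are not reported here. The full-length (Smart-seq) samples of the series were not used here.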

Additional observations from a re-analysis of the deposited data

Results flagged for a closer look

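Mfap4 and Thbs4 moved in opposite directions in the classes. The Ang2 Ab to IgG ratio of Mfap4 was 0.493 in Col2a1-low and 2.93 in cartilage-like barcodes, where it was 1.99 without the highest barcode of each library. That of Thbs4 was 0.422 in Col2a1-low barcodes, where 88.6% of the IgG UMIs lay in 1 barcode and the ratio without the highest was 1.503, and 21.7 in cartilage-like barcodes. Within Xist and Y-linked barcodes Mfap4 was at 0.688 and 0.247 in Col2a1-low and at 4.598 and 1.321 in cartilage-like barcodes. Thbs4 was at 0.605 in Xist and 3.24 (1.14 to 12.7) in Y-linked Col2a1-low barcodes, the latter from 4 UMIs in the IgG library. In cartilage-like barcodes it was at 2.62 and 13.57. With 1 library per treatment the difference between the classes was not tested.

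Col2a1 signal lay in barcodes outside the members. Among barcodes assigned to the mural class, 10 of the IgG and 6 of the Ang2 Ab library held 3 or more UMIs of Col2a1, 0.291% (95% exact binomial interval 0.140 to 0.534) and 0.203% (0.0744 to 0.440) of kept barcodes, and these barcodes enter none of the comparisons of members between treatments.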

How the results depend on the processing

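No paired analysis was possible because each treatment has 1 library. Under the alternatives, 140 values of the counts and shares stayed within 1.5 times the count or within the interval of the share, and 21 did not. Moving members with a Pecam1 or Cdh5 UMI out gave member shares of 1.48% (IgG) and 1.89% (Ang2 Ab), 67 genes higher and 68 lower in cartilage-like over Col2a1-low barcodes, and between treatments 45 higher in Col2a1-low and 7 lower in cartilage-like barcodes. Setting the Col2a1 limit at 10 gave a cartilage-like share of 45.7% in the IgG library and 62 genes higher over Col2a1-low barcodes. A minimum of 30 UMIs gave 277 lower genes in cartilage-like over Col2a1-low barcodes, and between treatments 136 higher and 243 lower in Col2a1-low and 95 higher and 170 lower in cartilage-like barcodes. With no minimum these were 379, 852 and 1255, and 682 and 874, and 1665 genes were higher in members over others. Leaving out each gene's highest barcode, an alternative chosen after seeing the data like the next and the removal of near-identical pairs, gave 8 genes higher in cartilage-like barcodes and turned Otor to 1.96. Leaving out barcodes with Schwann genes turned Pmp22 to 1.06. Y-linked barcodes alone, also added after seeing the data, gave 14 genes lower in cartilage-like barcodes. They turned Mest (0.397), Fabp4 (1.17), Dlk1 (0.763) and Thbs4 (3.24) in Col2a1-low and A2m (1.05), Hmcn1 (1.64) and Otos (5.00) in cartilage-like barcodes. Xist barcodes alone turned Pi16 (1.06) and Crispld2 (1.33) in Col2a1-low and Matn3 (0.336) and Otor (2.62) in cartilage-like barcodes.

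Other ratios between treatments that turned were, for a matrix sum of at least 40, Mal (3.35), Fabp4 (1.06) and Pmp22 (1.03) in Col2a1-low barcodes. With Pecam1 or Cdh5 barcodes moved out they were Ly6c1 (1.08) in Col2a1-low and Igfbp6 (0.561), Apod (0.405), Otor (4.51) and Prg4 (1.03) in cartilage-like barcodes. At most 5% mitochondrial UMIs turned Thbs4 (0.571), Igfbp6 (0.952) and Matn3 (0.773), and a Col2a1 limit of 1 turned Thbs4 (0.976), all in cartilage-like barcodes. Mt1 in Col2a1-low barcodes ranged from 2.93 to 6.76 over its alternatives. Near 100 UMIs a ratio of 2 rests on few molecules, often of 1 barcode, which limits the reading of single genes. The cause of these shifts was not tested.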

Other observations

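Immediate early genes, which rise during dissociation, were tested in all their 26 listed members against other barcodes, and Hspa1a was past 4-fold higher in members while none was lower, beside 4.71% of all tested genes higher and 7.18% lower. Fos stood at 4975 and 5749 CPM in Col2a1-low, 6160 and 6485 in cartilage-like and 3780 and 2759 in all other kept barcodes of the IgG and Ang2 Ab libraries.

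Of 23 tested growth factors 7 were past 4-fold higher in members, Igf1, Fgf2, Fgf7, Fgf18, Pdgfc, Bmp2 and Bmp5, and 4 lower, Pdgfd, Kitl, Adm and Tgfb1, beside the same shares of all genes. Fgf18, a growth factor of cartilage and bone, stood at 52.8 and 49.8 CPM in Col2a1-low and 28.3 and 26.2 in cartilage-like barcodes, against 0.602 and 1.665 in all others.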
